A study of Mus musculus with 12 samples.

Results

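The genes examined here encode the enzymes and the chaperone through which a fibrillar procollagen chain is modified, folded and trimmed. They were chosen by name, as rows of the deposited expression table whose probe set was annotated to 1 of the genes: the prolyl 4-hydroxylase subunits P4ha1, P4ha2 and P4ha3, the lysyl hydroxylases Plod1, Plod2 and Plod3, the chaperone Serpinh1 (Hsp47), and the propeptide-processing genes Pcolce, Bmp1 and Adamts2. Of the 10 genes, 9 were measured, each by 1 probe set, among 19938 genes in all. Expression of Adamts2 was not analysed here, and the gene enters only the search of promoter sequences.

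The samples were ventricles of male C57BL/6 mice. Right ventricles (RV) came from mice 1, 3 or 6 weeks after a haemoclip was closed around the pulmonary artery (PAC; aged 13, 15 and 18 weeks) and from sham mice at 3 weeks (aged 15 weeks). Left ventricles (LV) came from mice 3 weeks after transaortic constriction (TAC) and from sham mice at 3 weeks, both aged 15 weeks. There were 6 groups with 2 whole-transcript Affymetrix arrays apiece, 12 in all. All hearts were perfused with buffer and cut into left ventricle, septum and right ventricle. Whether an array stands for 1 mouse or a pool, and whether sham RV and sham LV shared hearts, is not stated in the labels, so p-values measure only the spread between these arrays. Sham hearts were taken at 3 weeks alone, and the PAC groups of 1 and 6 weeks therefore also differ from sham in age and in time since surgery.

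Collagen chains are modified in the endoplasmic reticulum before they are secreted. Prolyl 4-hydroxylase turns prolines into hydroxyprolines that stabilise the triple helix, lysyl hydroxylases turn lysines into the hydroxylysines from which cross-links and sugar attachments are built, and the chaperone Hsp47 binds the folded helix and keeps it from aggregating. Outside the cell, ADAMTS2 cuts off the amino-terminal propeptide, and BMP1, helped by the enhancer protein encoded by Pcolce, cuts off the carboxy-terminal propeptide, after which fibrils form. In the heart, fibroblasts are the main source of fibrillar collagen, and collagen builds up when a ventricle works against a raised pressure.

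Values are log2 expression on the scale deposited by the authors, and differences between groups are log2 differences ± the standard error from limma. Adjusted p is limma's moderated p with Benjamini-Hochberg adjustment over all 19938 genes, with 0.05 as the threshold below which a gene is said to have passed. Between 2 arrays and 2 arrays, an exact permutation test cannot give a p below 0.33, so each call rests on the spread that limma shares over all groups and genes. Levels of different genes are not set against each other, because each comes from a probe set of its own.

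Across the 12 arrays, the lowest value was 1.71 and the highest 14.78, and the array medians lay between 6.32 and 6.4. The 2 arrays of a group correlated at 0.9917 in PAC at 1 week, the lowest pair, and at 0.995 to 0.9971 in the other groups. Genes that passed made up 18.4% of all genes in PAC at 1 week, 5.76% at 3 weeks, 9.25% at 6 weeks and 24.8% in the mean of the 3 PAC times. They made up 0.0% in TAC. Cardiomyocyte markers (9 of 9 genes measured) averaged between 13.34 and 13.48 on every array. The 6 PAC arrays, at 13.34 to 13.42, all lay below both sham RV arrays, each at 13.48. Over the 3 PAC times 2 of the 9 markers passed as lower, as did 2515 of all 19938 genes. The median of all genes lay 0.05 below sham RV in each PAC comparison, and cyclic loess scaling moved it up by 0.04. At 1 week that scaling gave 1402 genes higher and 741 lower, against 1909 higher and 1766 lower on the deposited scale. With genes below the median level left out, 2001 were higher and 693 lower. The 1027 olfactory receptor genes, which the heart should not use, had medians of 3.76 to 3.81 on the PAC arrays, against 3.92 and 3.93 in sham RV. The part of this shift in the calls of dim genes as lower was not tested.

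In the clipped right ventricle, Pcolce, Plod2 and Plod3 were higher over the mean of the 3 PAC times, by 0.67 ± 0.18, 0.49 ± 0.15 and 0.39 ± 0.13. At 1 week alone, Pcolce, Bmp1 and Plod3 passed, and at 3 and at 6 weeks 0 of the 9 genes passed. All calls were increases, of 1.31-fold to 1.81-fold. P4ha2, P4ha3 and the chaperone Serpinh1 passed in no comparison, nor did P4ha1 and Plod1. The plot of both arrays of each group shows these levels gene by gene.

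**Figure D1:**
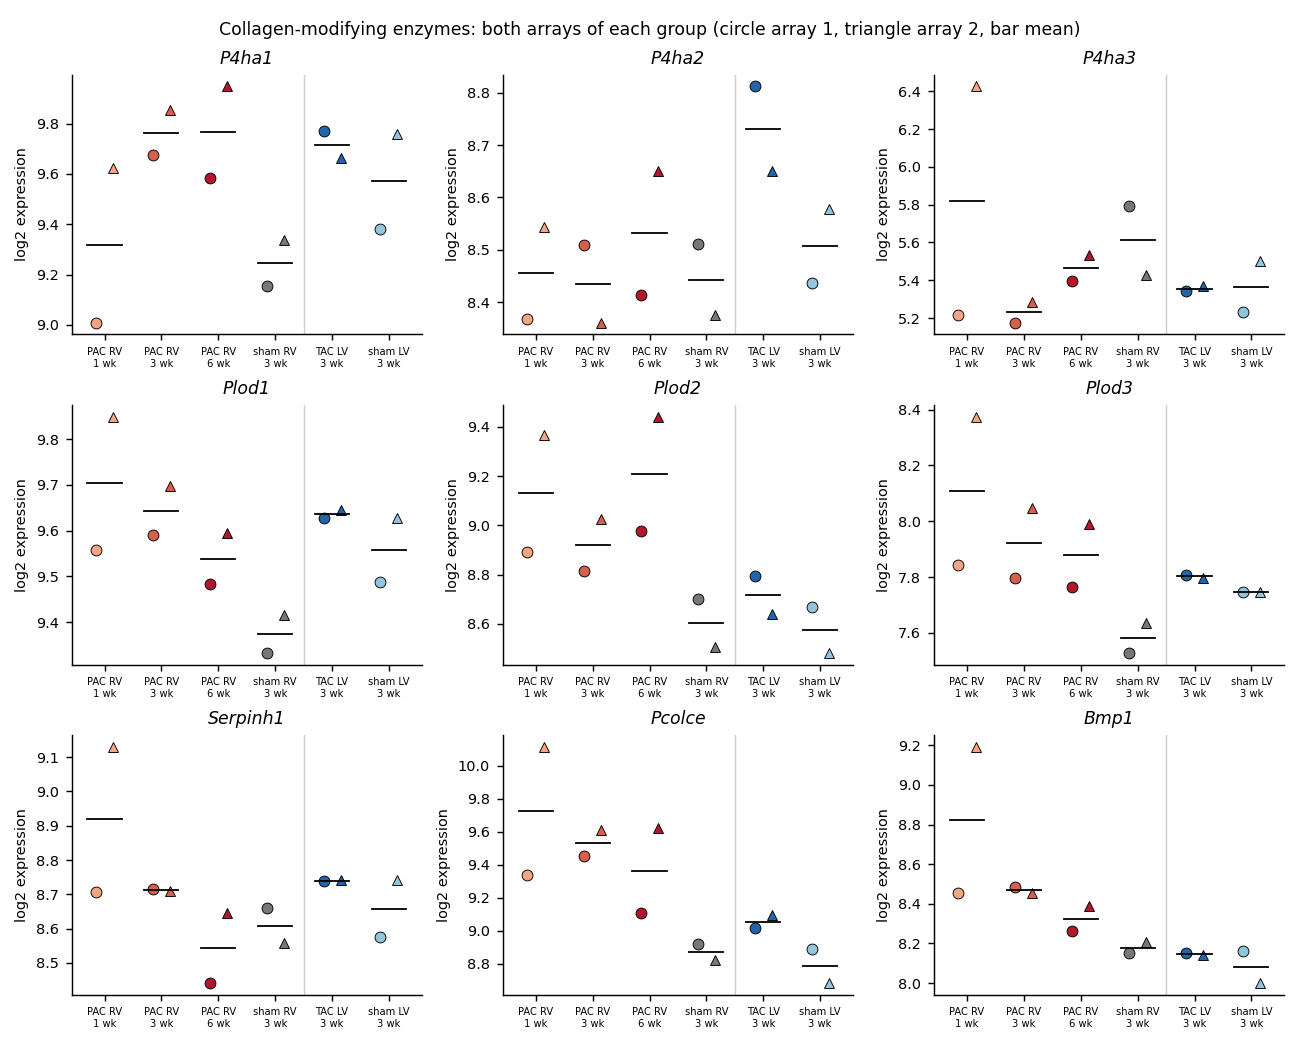
Log2 expression (vertical axis, a range of its own for each gene) of the 9 measured genes on both arrays of each group: circles are array 1, triangles array 2, and bars the mean of the 2 arrays. Both Pcolce arrays of each PAC time, between 9.11 and 10.11, lie above the sham RV arrays at 8.92 and 8.82, and array 2 of PAC at 1 week is the highest of all 12 arrays for P4ha3, Plod1, Plod3, Serpinh1, Pcolce and Bmp1.

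Promoters of 8 of the 10 genes, Adamts2 among them and Plod2 and Bmp1 not, were taken from RefSeq (GRCm38.p6), and the 250 bases before each start were searched on both strands for ACGTG and GCGTG (the core of the site of hypoxia-inducible factor, HIF), GGGCGG (Sp1) and GAANNTTC and TTCNNGAA (the core of the heat shock element). Those of Pcolce, Plod3, P4ha1 and Serpinh1 are shown, the first 2 because the genes passed and the others for the known HIF and heat shock control of these genes. No match of one motif overlapped another motif in the windows shown. Capitals mark every match, read 5′ to 3′ on the gene's strand. Pcolce lies at chr5:137611405-137611654 (minus strand, GRCm38.p6), Plod3 at chr5:136986769-136987018 (plus strand, GRCm38.p6), P4ha1 at chr10:59323046-59323295 (plus strand, GRCm38.p6) and Serpinh1 at chr7:99353240-99353489 (minus strand, GRCm38.p6).
Pcolce: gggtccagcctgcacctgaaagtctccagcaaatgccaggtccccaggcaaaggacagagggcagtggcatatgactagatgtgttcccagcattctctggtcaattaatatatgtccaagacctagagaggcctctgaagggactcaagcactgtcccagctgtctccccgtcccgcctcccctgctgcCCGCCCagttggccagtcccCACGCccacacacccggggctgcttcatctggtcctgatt
Plod3: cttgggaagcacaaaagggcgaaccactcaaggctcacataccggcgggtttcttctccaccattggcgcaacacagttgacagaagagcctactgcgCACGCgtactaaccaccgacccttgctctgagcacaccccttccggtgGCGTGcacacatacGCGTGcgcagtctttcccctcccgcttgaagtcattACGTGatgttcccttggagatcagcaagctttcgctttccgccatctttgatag
P4ha1: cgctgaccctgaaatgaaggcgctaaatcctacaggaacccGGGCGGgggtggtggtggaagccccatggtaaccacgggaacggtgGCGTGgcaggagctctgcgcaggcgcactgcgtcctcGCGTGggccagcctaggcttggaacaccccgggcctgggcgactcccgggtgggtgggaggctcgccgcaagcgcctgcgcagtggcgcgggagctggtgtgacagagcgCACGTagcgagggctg
Serpinh1: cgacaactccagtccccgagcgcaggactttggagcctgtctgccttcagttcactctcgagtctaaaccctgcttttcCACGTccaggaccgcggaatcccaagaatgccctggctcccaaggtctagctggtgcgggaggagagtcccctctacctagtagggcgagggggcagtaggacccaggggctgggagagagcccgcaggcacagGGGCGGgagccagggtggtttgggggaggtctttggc
A HIF core was found in 6 of the 8 windows, where 38.6% of 32851 windows of the same length held one. Plod3 held 4, P4ha1 and P4ha2 held 3 each, and Serpinh1, Pcolce and Plod1 held 1 each. The Sp1 motif was found in 7 of 8, all but Plod3, where 32.7% of all windows held it. The windows of the 8 genes were 55.6% to 78.0% G and C, against a median of 52.4% over all windows, and the HIF and Sp1 motifs are themselves rich in these bases. A heat shock core was found only for P4ha2, where 6.69% and 7.17% of all windows held each form. A match is a run of letters and not a shown binding site, and no match says only that these letters are not in this window.

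At 1 week the propeptide-processing genes Pcolce and Bmp1 differed most from sham RV among the 9. Pcolce, which encodes procollagen C-endopeptidase enhancer, stood at 9.34 and 10.11 in PAC at 1 week, at 9.45 and 9.61 at 3 weeks and at 9.11 and 9.62 at 6 weeks, against 8.92 and 8.82 in sham RV. All 6 PAC arrays lay above both sham RV arrays, as they did for 3357 of all 19938 genes. The increase was 0.85 ± 0.22 at 1 week (1.81-fold, adjusted p = 0.030, limma) and 0.67 ± 0.18 over the 3 times (1.59-fold, adjusted p = 0.027, limma). At 3 weeks the difference was 0.66 ± 0.22 (adjusted p = 0.090, limma) and at 6 weeks 0.49 ± 0.22 (adjusted p = 0.168, limma), and neither passed. By group mean the order was PAC at 1 week (9.73 ± 0.55, SD, n = 2), 3 weeks (9.53 ± 0.11) and 6 weeks (9.36 ± 0.36), then TAC (9.05 ± 0.06), sham RV (8.87 ± 0.07) and sham LV (8.79 ± 0.15). The 3 PAC times overlapped one another. Sham RV overlapped sham LV.

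Bmp1 encodes the procollagen C-proteinase itself. Its levels were 8.45 and 9.19 in PAC at 1 week, 8.49 and 8.45 at 3 weeks and 8.26 and 8.39 at 6 weeks, against 8.15 and 8.21 in sham RV. Every PAC array was above both sham RV arrays, but the gap was wide only for array 2 of PAC at 1 week. Bmp1 rose by 0.64 ± 0.18 at 1 week (1.56-fold, adjusted p = 0.0375, limma). At 3 weeks it stood 0.29 ± 0.18 above sham RV (adjusted p = 0.298, limma) and at 6 weeks 0.15 ± 0.18 (adjusted p = 0.607, limma). At 6 weeks both arrays were below both arrays of 1 week, a difference of -0.50 ± 0.18 that did not pass (adjusted p = 0.396, limma).

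The lysyl hydroxylases were higher at each PAC time by point estimate, and Plod3 and Plod2 passed in part. Plod3 encodes the lysyl hydroxylase that also adds glucose to hydroxylysine that already carries galactose. It stood at 7.84 and 8.38 in PAC at 1 week, at 7.80 and 8.05 at 3 weeks and at 7.77 and 7.99 at 6 weeks, against 7.53 and 7.64 in sham RV. The PAC arrays of all times were above both sham RV arrays. The increase was 0.53 ± 0.16 at 1 week (1.44-fold, adjusted p = 0.0427, limma) and 0.39 ± 0.13 over the 3 times (1.31-fold, adjusted p = 0.0485, limma). The differences of 0.34 ± 0.16 at 3 weeks (adjusted p = 0.175, limma) and 0.30 ± 0.16 at 6 weeks (adjusted p = 0.224, limma) did not pass.

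Plod2 encodes the enzyme that hydroxylates lysines in the collagen telopeptides, the ends from which the most stable cross-links of fibrotic tissue are made. Its levels were 8.89 and 9.37 in PAC at 1 week, 8.81 and 9.03 at 3 weeks and 8.98 and 9.44 at 6 weeks, against 8.70 and 8.50 in sham RV. All 6 PAC arrays were above sham RV, and the highest of all was an array of 6 weeks. Plod2 rose by 0.49 ± 0.15 over the 3 times (1.40-fold, adjusted p = 0.0373, limma). Single times did not pass, at 0.53 ± 0.18 at 1 week (adjusted p = 0.063, limma), 0.32 ± 0.18 at 3 weeks (adjusted p = 0.255, limma) and 0.61 ± 0.18 at 6 weeks (adjusted p = 0.0598, limma). The difference of 6 weeks from 1 week was 0.08, with a 95% interval of -0.32 to 0.48.

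Plod1, which hydroxylates lysines within the triple helix, moved less. It stood at 9.56 and 9.85 in PAC at 1 week, at 9.59 and 9.70 at 3 weeks and at 9.48 and 9.59 at 6 weeks, against 9.33 and 9.41 in sham RV. The groups did not overlap at any time. The difference was 0.33 ± 0.11 at 1 week (adjusted p = 0.0549, limma) and 0.26 ± 0.09 over the 3 times (adjusted p = 0.0561, limma), both just short of the threshold. Both sham RV arrays lay below the sham LV arrays, which stood at 9.49 and 9.63, within the PAC range.

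The prolyl 4-hydroxylase subunits did not move as a set, and 0 of the 3 passed in any comparison. P4ha1, the main catalytic subunit in most tissues, stood at 9.01 and 9.62 in PAC at 1 week, at 9.67 and 9.86 at 3 weeks and at 9.59 and 9.95 at 6 weeks, against 9.16 and 9.34 in sham RV. The arrays of 1 week fell on either side of sham RV, and those of 3 and 6 weeks lay above it. The differences were 0.07 ± 0.20 at 1 week (adjusted p = 0.82, limma), 0.52 ± 0.20 at 3 weeks (adjusted p = 0.119, limma) and 0.52 ± 0.20 at 6 weeks (adjusted p = 0.112, limma). The difference of 6 weeks from 1 week was 0.45 ± 0.20 (adjusted p = 0.502, limma), so no order of the times was shown. P4ha1 averaged 9.25 ± 0.13 in sham RV and 9.57 ± 0.27 in sham LV (SD, n = 2 each), without overlap.

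P4ha2, the catalytic subunit of the second prolyl 4-hydroxylase form, stayed within 0.45 log2 units over the 12 arrays. It stood at 8.37 and 8.54 in PAC at 1 week, at 8.51 and 8.36 at 3 weeks and at 8.41 and 8.65 at 6 weeks, against 8.51 and 8.38 in sham RV. PAC and sham RV overlapped at every time. Over the 3 times the difference was 0.03, with a 95% interval of -0.18 to 0.24. Its highest array was array 1 of TAC, at 8.81. Array 2 of TAC and array 2 of PAC at 6 weeks were level at 8.65, and sham LV stood at 8.44 and 8.58.

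P4ha3, the third catalytic subunit, was near the level of genes that the heart should not use. It exceeded the 95th percentile of 1027 olfactory receptor genes of the same array on only 3 of 12 arrays, where the other 8 genes exceeded it on all 12. Its levels were 5.21 and 6.43 in PAC at 1 week, 5.18 and 5.29 at 3 weeks and 5.40 and 5.53 at 6 weeks, against 5.79 and 5.43 in sham RV. Only array 2 of PAC at 1 week stood clearly apart. P4ha3 was also the 1 gene of the 9 below the median level of all genes, 6.74, and its changes are not read as fold changes.

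The chaperone gene Serpinh1 stood at 8.71 and 9.13 in PAC at 1 week, at 8.71 and 8.71 at 3 weeks and at 8.44 and 8.65 at 6 weeks, against 8.66 and 8.56 in sham RV. At 1 and 3 weeks both PAC arrays were above both sham RV arrays, and at 6 weeks they overlapped. The differences were 0.31 ± 0.13 (adjusted p = 0.114, limma), 0.10 ± 0.13 (adjusted p = 0.615, limma) and -0.06 ± 0.13 (adjusted p = 0.768, limma). Over the 3 times the interval of the difference ran from -0.12 to 0.35. The difference of 6 weeks from 1 week was -0.38 ± 0.13 and did not pass (adjusted p = 0.369, limma).

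**Figure D2:**
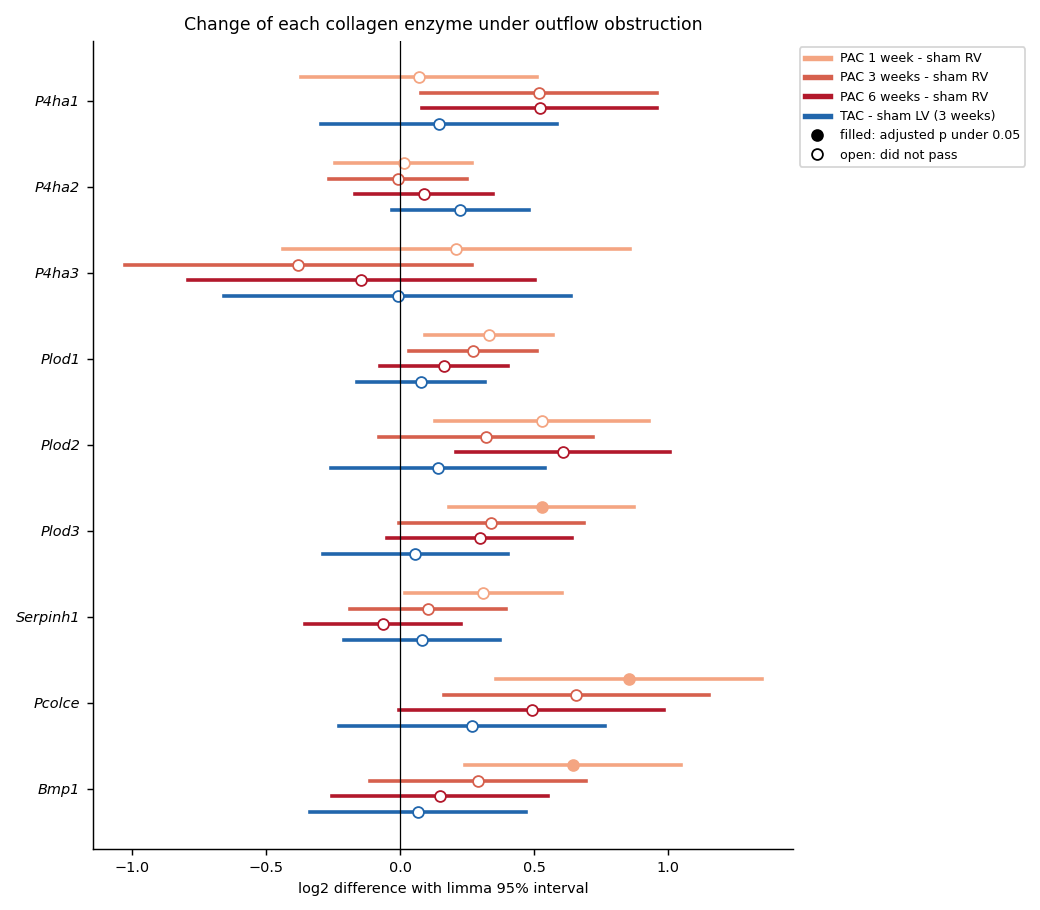
Log2 difference from sham (horizontal axis) of each gene with its 95% interval from limma, for PAC at 1, 3 and 6 weeks against sham RV and for TAC against sham LV; filled points passed at an adjusted p under 0.05. Pcolce, Bmp1 and Plod3 at 1 week are the filled points, and every TAC interval spans 0.

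Counted together, 3 of the 9 genes passed at 1 week, all higher, where 9.57% of all genes passed as higher. For the mean of the 3 times 3 of 9 passed as higher, where 12.2% of all genes did. At 3 and at 6 weeks 0 of 9 passed by limma, where 3.22% and 5.52% of all genes passed as higher. An unadjusted p under 0.05 was found for 6 of the 9 genes at 1 week, 3 at 3 weeks and 2 at 6 weeks, where 37.9%, 29.7% and 30.3% of all genes had one. The median difference of the 9 genes was 0.33 at 1 week, 0.29 at 3 weeks and 0.16 at 6 weeks, and that of all genes was -0.05 at each time. PAC arrays did not overlap sham RV and lay above it for 6 genes at 1 week, 7 at 3 weeks and 6 at 6 weeks, where 26.4%, 25.5% and 26.0% of all genes did so. All 6 PAC arrays lay above both sham RV arrays for 5 of the 9 genes, Pcolce, Bmp1, Plod1, Plod2 and Plod3, and for 3357 of all 19938 genes. P4ha3 lay below without overlap at 3 weeks, as did 35.7% of all genes.

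The calls rest on few arrays. At 1 week the calls of Pcolce, Bmp1 and Plod3 were lost when PAC 1 week array 2 or either sham RV array was left out. Far fewer of all genes passed in these fits too, so the loss is not particular to the collagen genes. Such a fit leaves 1 array in a compared group. Without PAC 1 week array 2 the increase of Pcolce was 0.46, of Bmp1 0.28 and of Plod3 0.26. Without PAC 1 week array 1 the increases were 1.24, 1.01 and 0.79. Pcolce alone passed there without either TAC array, and Pcolce and Bmp1 without either sham LV array. For the mean of the 3 times, 0 genes passed without PAC 3 weeks array 2, without either sham RV array, or with the mean taken over 3 and 6 weeks only, a choice made after seeing the data. Pcolce alone passed without PAC 6 weeks array 2 or either TAC array, Pcolce and Plod2 passed without either sham LV array, and 6 genes passed without PAC 1 week array 1. Without PAC 1 week array 2, Bmp1 (0.24, adjusted p = 0.049, limma), Pcolce (0.54) and Plod3 (0.30) passed and Plod2 (0.41, adjusted p = 0.052, limma) did not. With cyclic loess scaling 0 genes passed in either comparison, with Pcolce at 0.76 at 1 week (adjusted p = 0.052, limma) and at 0.58 over the 3 times (adjusted p = 0.053, limma).

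Array 2 was above array 1 at all 3 PAC times for 6 of the 9 genes, namely P4ha1, P4ha3, Plod1, Plod2, Plod3 and Pcolce, where 19.2% of all genes showed this. At 1 week the gap was 1.21 for the dim P4ha3, 0.78 for Pcolce, 0.61 for P4ha1 and 0.53 for Plod3, and 0.74 for Bmp1, which is not among the 6. The activated fibroblast markers (9 of 9 measured) had the same order, with array means of 8.17 and 9.82 in PAC at 1 week, 8.78 and 9.05 at 3 weeks and 8.73 and 9.63 at 6 weeks, against 7.24 and 7.41 in sham RV. Atrial muscle markers (5 of 5 measured) averaged 9.68 and 10.94, 8.74 and 10.16, and 8.51 and 8.99 at the 3 PAC times, against 7.53 and 6.83 in sham RV. They averaged 8.55 and 8.46 in TAC and 8.11 and 9.42 in sham LV, so array 2 of sham LV lay above both PAC arrays of 6 weeks. Bmp10, an atrial muscle gene, stood at 8.55 and 10.50 in PAC at 1 week and at 8.79 on array 2 of 3 weeks, and between 4.28 and 4.79 on the other 9 arrays. Macrophage markers (8 of 8 measured) averaged 8.41 and 9.14 in PAC at 1 week, 8.21 and 8.38 at 3 weeks and 8.08 and 8.03 at 6 weeks, against 7.91 and 7.90 in sham RV. Fibroblast markers (9 of 9 measured) averaged 9.77 and 10.29, 10.14 and 10.24, and 9.87 and 10.25, against 9.37 and 9.32. At 1, 3 and 6 weeks 7, 4 and 5 of the 9 activated fibroblast markers passed as higher, where 9.57%, 3.22% and 5.52% of all genes did. Of the 9 fibroblast markers 4, 3 and 4 did. Of the 8 macrophage markers 8, 0 and 0 did by limma, with 2 and 1 at an unadjusted p under 0.05 at 3 and 6 weeks. Proliferation markers (4 of 5 measured) averaged 7.26 and 8.13 in PAC at 1 week, 6.80 and 6.55 at 3 weeks and 6.31 and 6.10 at 6 weeks, against 5.77 and 5.99 in sham RV, and 4 of the 4 passed as higher at 1 week. Endothelial markers (8 of 8 measured) averaged between 9.80 and 10.07 on the PAC arrays, against 9.60 and 9.64 in sham RV, and 3 of the 8 passed as higher at 1 week, 5 at 3 weeks, 0 at 6 weeks (by limma, with 4 at an unadjusted p under 0.05) and 7 over the 3 times. The part of these cell types and of cell division in the changes of the collagen enzymes was not tested. In whole tissue, more cells that express a gene and more RNA of it per cell cannot be told apart.

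**Figure D3:**
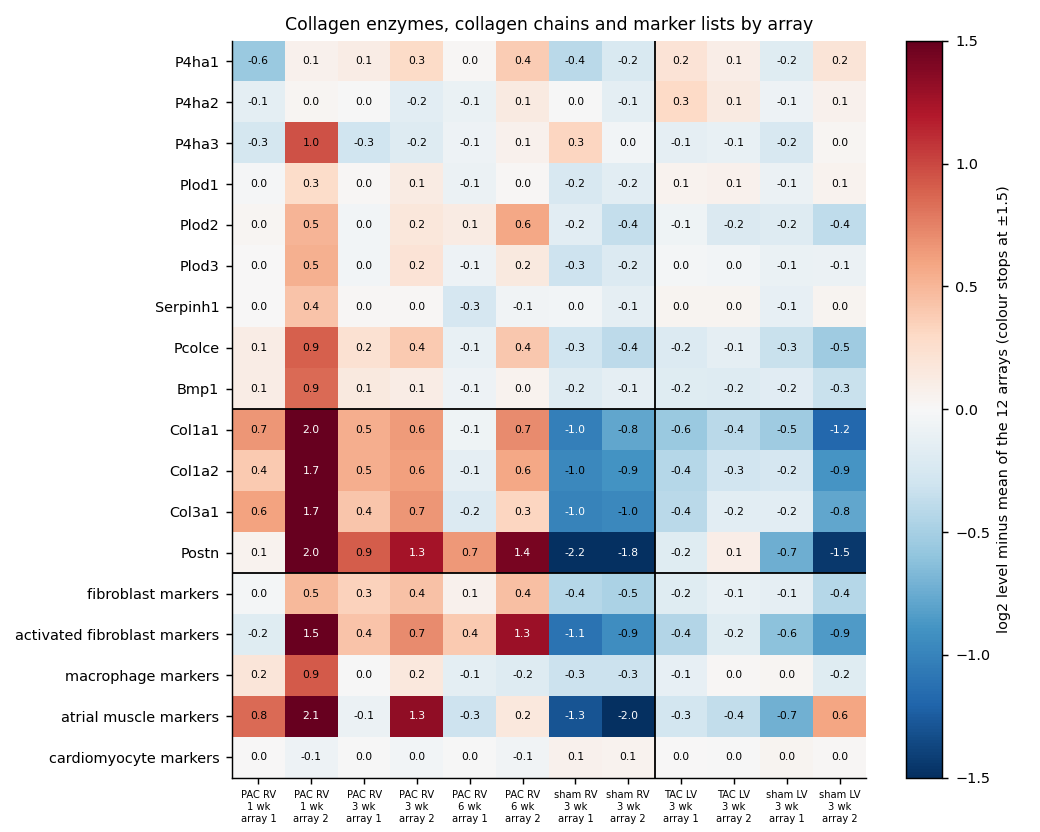
Log2 level of each gene or the mean of each marker list on each array (columns), less its mean over the 12 arrays; red is above and blue below, and the colour stops at 1.5 in either direction. Array 2 of PAC at 1 week is the reddest column for most enzymes, for the collagen chains and for the macrophage, activated fibroblast and atrial markers, while the cardiomyocyte row is nearly blank.

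The collagen chains that rose most, the substrates of these enzymes, differed from sham RV by more than any of the enzymes did. Of 11 fibrillar procollagen chains, 5 rose and 2 fell at 1 week (median 0.13), 3 rose at 3 weeks (median 0.06) and 0 passed by limma at 6 weeks (median 0.03), with 5 at an unadjusted p under 0.05. Among all genes 9.57%, 3.22% and 5.52% passed as higher at these times, and 1766 of 19938 passed as lower at 1 week. An unadjusted p under 0.05 was found for 30.3% of all genes at 6 weeks. Col1a1 was 11.08 and 12.40 in PAC at 1 week, 10.96 and 11.05 at 3 weeks and 10.35 and 11.13 at 6 weeks, against 9.38 and 9.63 in sham RV. It rose by 2.23 ± 0.38 at 1 week (adjusted p = 0.0088, limma) and by 1.50 ± 0.38 at 3 weeks (adjusted p = 0.046, limma), and stood at 1.23 ± 0.38 at 6 weeks (adjusted p = 0.064, limma). Col3a1 rose by 2.12 ± 0.31 at 1 week and 1.53 ± 0.31 at 3 weeks, and Col1a2 by 1.97 ± 0.36 and 1.51 ± 0.36. Col5a2 rose by 1.61 ± 0.37 at 1 week. These differences stand beside 0.85 and 0.66 for Pcolce and 0.31 and 0.10 for Serpinh1. Col5a1 rose by 0.62 ± 0.19 at 1 week, and Col27a1 (-0.485 ± 0.13) and Col11a2 (-0.41 ± 0.12) fell. The difference between enzyme and substrate changes was not tested.

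Other genes of the collagen assembly line passed in both directions, more of them as higher. Of 24 measured genes of the wider machinery, 5 rose and 1 fell at 1 week (median 0.31), 3 rose and 2 fell at 3 weeks (median 0.16), and 4 rose and 1 fell at 6 weeks (median 0.12). Among all genes 9.57%, 3.22% and 5.52% passed as higher, and 1766, 506 and 743 of 19938 as lower. At 1 week 17 of the 24 lay wholly above sham RV and 4 wholly below, where 5263 and 7317 of all genes did. Sparc, a collagen-binding matrix protein, rose at each time, by 1.33 ± 0.20, 1.10 ± 0.20 and 0.84 ± 0.20. Fkbp14, an endoplasmic reticulum prolyl isomerase, rose by 0.68 ± 0.15 at 1 week and by 0.61 ± 0.15 at 3 weeks, and its sham level was lower in RV than in LV by point estimate (-0.74 ± 0.15, adjusted p = 0.054, limma). Ppib, the isomerase cyclophilin B of the prolyl 3-hydroxylation complex, rose by 0.44 ± 0.11 at 1 week, and Colgalt1, which adds galactose to hydroxylysine, by 0.39 ± 0.10. Pcolce2, a paralogue of Pcolce, rose by 0.74 ± 0.19 at 3 weeks and 0.75 ± 0.19 at 6 weeks. P3h2, a prolyl 3-hydroxylase, rose by 1.20 ± 0.28 at 6 weeks, and P3h4, a non-enzymatic relative, fell by 0.47 at 3 weeks. Tll2, a proteinase related to BMP1, fell at each time, by 0.27, 0.35 and 0.35.

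General endoplasmic reticulum chaperone and stress genes passed at no single PAC time. Of the 9 collagen enzymes, 0 passed at 3 and at 6 weeks either. Of 18 general genes, 0 passed by limma at 1, 3 or 6 weeks, with 2, 5 and 10 at an unadjusted p under 0.05. Over all genes 37.9%, 29.7% and 30.3% had one, and of the 9 collagen enzymes 6, 3 and 2. The medians of the 18 genes were -0.045, -0.09 and -0.11. The smallest p among them at 1 week belonged to Herpud1 (-0.35 ± 0.13, adjusted p = 0.078, limma). Over the 3 times 1 of the 18 passed, Xbp1, a transcription factor of the unfolded protein response, at -0.27 ± 0.09 (adjusted p = 0.047, limma). Of 9 measured cytosolic heat shock genes, 0 passed by limma in any PAC comparison with sham RV, and 1 had an unadjusted p under 0.05 at each time, with Hspb1 at 0.49 ± 0.19 at 1 week (adjusted p = 0.094, limma) and Hsp90aa1 at 0.54 ± 0.16 at 6 weeks (adjusted p = 0.059, limma).

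P4ha1 and Plod2 are among the known targets of HIF, so other HIF-responsive genes were set beside them. Of 14 such genes, 2 rose at 1 week (median 0.08), 1 rose at 3 weeks (median 0.34), and 5 rose and 1 fell at 6 weeks (median 0.28). Among all genes 9.57%, 3.22% and 5.52% passed as higher at these times, and 743 of 19938 passed as lower at 6 weeks. Bnip3, a mitophagy receptor, rose by 0.52 ± 0.13 at 3 weeks and 0.74 ± 0.13 at 6 weeks, and Ankrd37 by 0.94 ± 0.18 at 6 weeks. Adm, a vasodilator peptide, rose by 0.68 ± 0.17 at 1 week. The prolyl hydroxylase Egln3, which acts on HIF itself and uses the same cofactors as the collagen hydroxylases, rose by 0.64 ± 0.17 at 6 weeks. The glucose transporter Slc2a1 rose by 0.65 ± 0.16 at 1 week and 0.60 ± 0.16 at 6 weeks, and Ddit4 fell by 0.67. At 6 weeks P4ha1 stood at 0.52 and Plod2 at 0.61, and neither passed. P4ha2, whose promoter window also held HIF cores, stood at 0.01, -0.01 and 0.09 at 1, 3 and 6 weeks. Of 5 other hydroxylases of the same cofactor class, Egln3 included, 0 passed by limma at 1 week (0 unadjusted), 0 at 3 weeks (1 unadjusted) and 1 at 6 weeks.

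**Figure D4:**
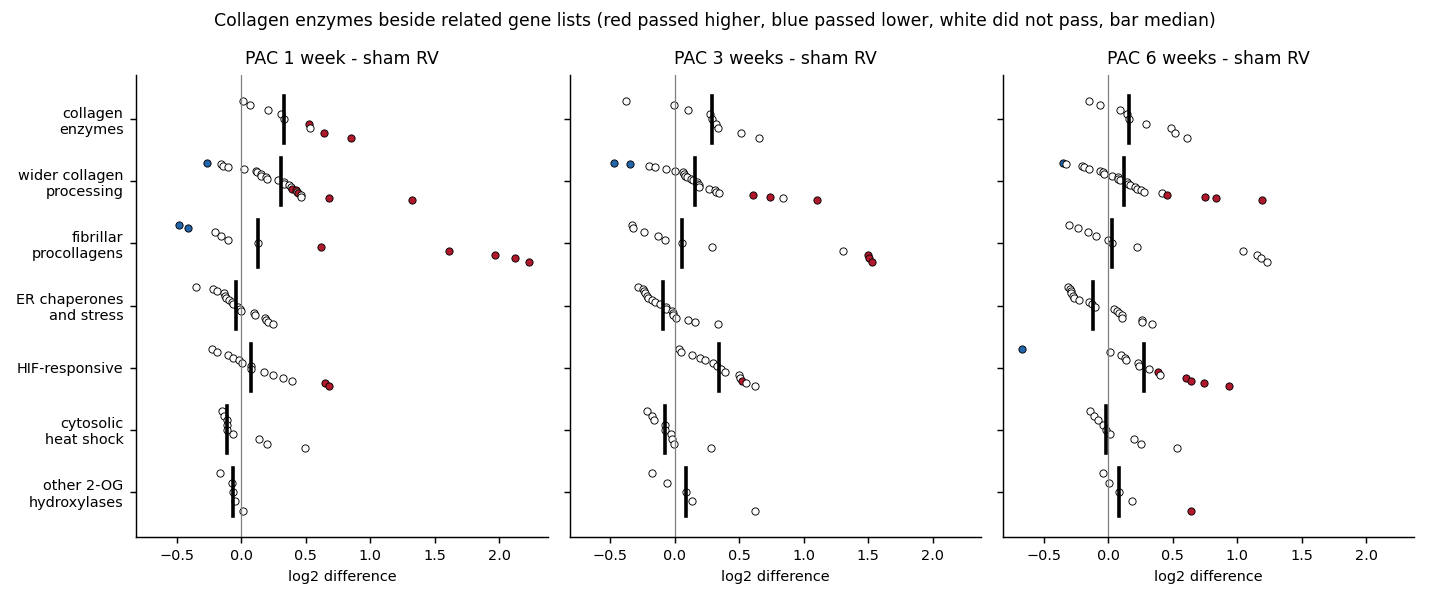
Log2 difference from sham RV (horizontal axis) of every measured gene of 7 lists (rows) in PAC at 1, 3 and 6 weeks; red points passed as higher, blue as lower, white did not pass, and bars are list medians. The collagen enzymes lie mostly right of 0, with medians of 0.33, 0.29 and 0.16, and far left of the 4 most raised procollagen chains at 1 week.

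In the left ventricle 0 of the 9 genes passed after TAC, and 0 had an unadjusted p under 0.05, where 0.0% and 4.83% of all genes did. Pcolce stood at 9.01 and 9.09 in TAC, against 8.89 and 8.68 in sham LV, a difference of 0.27 with a 95% interval of -0.23 to 0.76. P4ha2 was also higher without overlap (0.22 ± 0.12, adjusted p = 0.985, limma), as was Plod3, whose arrays lay at 7.81 and 7.80 in TAC, against 7.75 and 7.75 in sham LV. Arrays above sham without overlap were found for 3 of 9 genes, where 18.2% of all genes showed this. Of Plod2 the difference was 0.14 (95% interval -0.26 to 0.54), of Bmp1 0.07 (-0.34 to 0.47) and of Serpinh1 0.08 (-0.21 to 0.37). The median over the 9 genes was 0.08, and over all genes -0.02.

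The PAC change less the TAC change at 3 weeks was not shown to differ from 0 for any of the 9 genes, nor did any other gene pass (0.0%). An unadjusted p under 0.05 was found for 0 of the 9, where 11.9% of all genes had one. It was largest for Pcolce, at 0.39 (95% interval -0.31 to 1.09, adjusted p = 0.617, limma), and P4ha1, at 0.37 (-0.25 to 0.99, adjusted p = 0.589, limma). For Serpinh1 it was 0.02 (-0.39 to 0.43). An equal response of both chambers was not shown either, given these intervals.

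Between the sham ventricles 0 of the 9 genes passed, where 0.411% of all genes did, and 0 had an unadjusted p under 0.05, where 20.7% did. P4ha1, Plod1 and Plod3 were lower in sham RV than in sham LV without overlap, as were 26.1% of all genes. P4ha1 stood at 9.16 and 9.34 in sham RV, against 9.38 and 9.76 in sham LV (-0.32 ± 0.20, adjusted p = 0.375, limma). Plod3 stood at 7.53 and 7.64 in sham RV, against 7.75 in both sham LV arrays (-0.16 ± 0.16, adjusted p = 0.581, limma). Pcolce, Bmp1, Plod2, Serpinh1, P4ha2 and P4ha3 overlapped between the chambers. The HIF-responsive list had a median of -0.27 in this comparison, with 0 of 14 passing by limma and 6 at an unadjusted p under 0.05.

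From 1 to 6 weeks after clipping, 0 of the 9 genes passed, where 0.0953% of all genes did. An unadjusted p under 0.05 was found for 3, where 9.75% of all genes had one: Bmp1 (-0.50), Serpinh1 (-0.38) and P4ha1 (0.45). Bmp1 and Serpinh1 lay lower at 6 weeks than at 1 week without overlap, as did 17.2% of all genes. With array 2 alone at 1 week the differences were -0.87 for Bmp1, -0.59 for Serpinh1 and -0.96 for the dim P4ha3. With array 1 alone at 1 week they were -0.13, -0.16 and 0.25.

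For the 3 genes that passed at a single PAC time, the genes with the most similar profile over the 12 arrays were found by the root mean square difference of log2 values, each gene centred on its own mean. Nearest to Bmp1, whose own spread was 0.30, were Col5a1 (0.051), a collagen V chain, Mfap2 (0.083), a microfibril protein, and Tyrobp (0.11), a myeloid adaptor. Nearest to Pcolce, with a spread of 0.40, were Rcn3 (0.075), a calcium-binding protein of the endoplasmic reticulum, Col6a1 (0.092), a collagen VI chain, and S100a6 (0.10). Nearest to Plod3, with a spread of 0.21, were Spats2 (0.039), Inpp5d (0.059) and Prkcd (0.062). Among the 9 genes, Plod1 and Serpinh1 were the closest pair (0.097) and P4ha1 and P4ha3 the farthest apart (0.42).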

How the data were processed

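The authors deposited 1 table of log2 expression values, made with RMA in Affymetrix Power Tools, per the submitters' processing notes. Its version and the genome build are not stated here. Of 35556 probe sets, 21789 were annotated to a single gene. For genes with several, that of highest mean level was used, leaving 19938 genes. Symbols were updated through gene identifiers.

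A mean for each group was estimated with limma 3.58.1 (R 4.3.3) from all 12 arrays (6 residual and 4.6 prior degrees of freedom) and tested in 8 comparisons, with Benjamini-Hochberg adjustment over all genes. Alternatives were cyclic loess scaling, the mean over probe sets, leaving out genes below the median level, a robust prior with trend, fitting the compared arrays alone, a replicate block and leaving out each array. The number of arrays limits the precision.

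The genes, lists and markers were chosen with earlier results of these data known. All 10 genes are named. Of the other lists up to 4 genes per comparison are named, those that passed first and then by smallest p. Col5a1, Col27a1, Col11a2, Egln3, Ddit4, Tll2 at 1 week and Pcolce2 at 3 weeks were named after their values were seen. Replicate numbers were not used as pairs.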

Additional observations from a re-analysis of the deposited data

How the results depend on the processing

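The count of the 9 collagen genes that passed was 3 at 1 week, 0 at 3 weeks, 0 at 6 weeks and 3 over the 3 PAC times. It fell to 0 at 1 week and 0 over the 3 times with cyclic loess scaling and in a fit to only the arrays compared, and to 0 over the 3 times with 3 and 6 weeks only. The fit to only the arrays compared called 2 at 3 weeks (P4ha1 and Pcolce), and dropping genes under the median level called 1 at 6 weeks (Plod2). With the replicate block 5 passed over the 3 times, P4ha1 and Plod1 being added, and 4 at 1 week, Plod1 being added; the labels pair no samples by number. Deviations of same-numbered arrays correlated at 0.26, 0.37 and 0.26 between the PAC times, and at -0.24 to 0.11 between all other groups. Leaving out single arrays gave 0 to 7 at 1 week, 0 to 1 at 3 weeks, 0 to 1 at 6 weeks, 0 to 6 over the 3 times, 0 to 3 for 6 weeks less 1 week, and 0 to 0 for TAC, for the sham ventricles and for PAC less TAC. The cause was not tested.

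Each of the 9 genes had 1 probe set, so the mean over probe sets left their levels as they were and is no check on them. It called the same genes at 1 week and over the 3 times. The robust prior added Plod1 in both comparisons. Among the 9 genes, only differences that did not pass changed sign. With loess scaling P4ha1 (-0.021) and P4ha2 (-0.073) did so at 1 week, P4ha2 (-0.051) and P4ha3 (0.048) over the 3 times, P4ha3 in TAC (0.028), P4ha2 (0.019) and Serpinh1 (0.036) between the sham ventricles, and Serpinh1 in PAC less TAC (-0.054). With single arrays left out, ranges that span 0 were, at 1 week, -0.24 to 0.38 for P4ha1, -0.0745 to 0.10 for P4ha2 and -0.40 to 0.82 for P4ha3. At 3 weeks the range was -0.082 to 0.066 for P4ha2. At 6 weeks it was -0.030 to 0.21 for P4ha2, -0.33 to 0.035 for P4ha3 and -0.17 to 0.0375 for Serpinh1. Over the 3 times it was -0.037 to 0.10 for P4ha2 and -0.31 to 0.10 for P4ha3. For 6 weeks less 1 week it was -0.0425 to 0.19 for P4ha2, -0.96 to 0.25 for P4ha3, -0.75 to 0.026 for Pcolce, -0.16 to 0.32 for Plod2 and -0.50 to 0.034 for Plod3. In TAC it was -0.015 to 0.15 for Bmp1, -0.042 to 0.33 for P4ha1, -0.15 to 0.13 for P4ha3 and -0.0013 to 0.16 for Serpinh1. Between the sham ventricles it was -0.14 to 0.0068 for P4ha2, -0.016 to 0.19 for Pcolce, -0.071 to 0.12 for Plod2 and -0.13 to 0.033 for Serpinh1, and in PAC less TAC -0.062 to 0.10 for Serpinh1.

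Over all genes, loess scaling gave 2143 calls against 3675 at 1 week, 557 against 1148 at 3 weeks, 3084 against 4941 over the 3 times and 52 against 82 between the sham ventricles (15 higher and 37 lower, against 15 and 67). A fit to only the arrays compared gave 89 at 1 week, 1020 against 1844 at 6 weeks, 2914 over the 3 times, 6 between the sham ventricles, 1 against 19 for 6 weeks less 1 week, and 2 against 0 for PAC less TAC. Dropping genes under the median level gave 32 for 6 weeks less 1 week and 871 between the sham ventricles, the trended and robust prior 83 and 723, and the replicate block 11 for 6 weeks less 1 week. With 3 and 6 weeks only, 3293 passed. Without single arrays the counts ran from 227 to 4557 at 1 week, 3 to 2070 at 3 weeks, 3 to 2656 at 6 weeks, 296 to 6235 over the 3 times, 1 to 488 for 6 weeks less 1 week, 0 to 252 between the sham ventricles, 0 to 1 in TAC and 0 to 3 in PAC less TAC.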
